A study of Oryctolagus cuniculus with 6 samples.

Results

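The genes described here encode the enzymes of glycolysis and gluconeogenesis, 35 of the 16367 protein-coding genes in a count table from rabbit (Oryctolagus cuniculus) tissue. They are the genes that the table's own annotation places in the KEGG pathway Glycolysis / Gluconeogenesis (ocu00010), which includes PKM. This rule reads no measured value, but the genes, gene lists and tests were chosen with earlier results of these data known. RNA-seq libraries were made from 3 samples titled test and 3 titled control. The tissue is perichondral (from the sheath around cartilage) by the series title and subcutaneous by the sample labels. What the test samples received, the breed and age of the animals, and whether the samples came from separate animals are not given in the sources used here, so p-values measure only the spread between these samples.

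Glycolysis splits a glucose molecule into a pair of pyruvate molecules and yields ATP without oxygen. Pyruvate is then reduced to lactate or oxidised in mitochondria, and gluconeogenesis runs the reversible steps backwards with its own enzymes at the irreversible ones. Most steps are served by several isozymes, each encoded by its own gene and each typical of certain tissues. In connective tissue that is injured or inflamed, fibroblasts and activated macrophages are known to rely on this route. The isozymes GAPDH, ALDOA, PGK1, PGAM1, PFKL and LDHA are not analysed here, so the account covers most but not all of the steps.

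Total counts ran from 17820537 to 21199562 in test libraries and from 21923246 to 23105606 in control libraries, and the 13 mitochondrially encoded genes took 6.967% to 7.779% and 10.073% to 13.291% of them. The 7 fibroblast markers found in the table summed to 17500.7 to 20658.4 CPM (counts scaled by edgeR to the TMM-normalised library size) in test libraries and 29301.5 to 41724.8 CPM in control libraries. The 6 cartilage markers summed to 3642.4 to 5208.8 CPM in test libraries and 1552.1 to 4405.0 CPM in control libraries. Of the 6 adipocyte markers in the table, LEP had no count, and their sum was 76.0 to 93.1 CPM in test libraries and 97.1 to 186.0 CPM in control libraries. Among them edgeR called ADIPOQ, the adipocyte hormone adiponectin, lower (32.6 ± 4.59 CPM in test tissue and 103.1 ± 38.3 CPM in control tissue, SD, n = 3 each, adjusted p = 0.0038) and PPARG, the adipogenic transcription factor, higher (27.0 ± 4.02 CPM in test tissue and 17.6 ± 0.639 CPM in control tissue, adjusted p = 0.0423). In such bulk RNA, a change in the number of cells of a type cannot be told apart from a change in RNA per cell.

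The summed level of the pathway genes was higher in test tissue, and ENO1, PKM and TPI1 held most of the difference. The 35 genes together summed to 4032, 4142 and 3990 CPM in test replicates 1 to 3, against 3050, 3321 and 3336 CPM in control replicates 1 to 3. All 3 test sums were above all 3 control sums, and the ratio of the means was 1.25. The enzymes ENO1, PKM and TPI1, picked after their values were seen because they hold the most counts, summed to 2292 ± 27.7 CPM in test tissue and 1543 ± 106 CPM in control tissue (SD, n = 3 each, as for all means). The other 32 genes summed to 1762 ± 58.6 CPM in test tissue and 1693 ± 92.2 CPM in control tissue, with overlapping groups. The 8 genes of the lower, pyruvate-forming part summed to 1743.7 to 1764.8 CPM in test libraries and 1061.1 to 1245.8 CPM in control libraries. Most of this sum came from ENO1 and PKM, with means of 1016.7 and 666.6 CPM in test tissue and 702.8 and 419.9 CPM in control tissue. Counts were not divided by transcript length, so levels are compared here between samples and not between genes.

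Of the 35 genes, 31 had enough counts to be tested. By edgeR's quasi-likelihood test with Benjamini-Hochberg adjustment over all 12740 genes tested, 8 were higher in test tissue and 1 was lower at an adjusted p under 0.05. Among all genes tested 6.84% were called higher and 6.15% lower, together 13.0%, where the calls among the pathway genes came to 29.0%. The genes that rose were ADPGK, GALM, G6PC3, TPI1, GAPDHS, ENO1, ENO2 and PKM, and the gene that fell was ALDOC. The median log2 fold change (test over control) of the 31 genes was 0.15, against -0.0038 over all genes tested. In 12 of the 31 genes all test values were above all control values and in 1, ACSS2, all were below, where 18.4% and 16.6% of all genes tested separated in these directions. By stretch of the pathway, 4 of 7 tested genes from glyceraldehyde-3-phosphate to pyruvate were called, 2 of 6 between the isomerase and the triose phosphates, 3 of 8 at the entry, and 0 of 10 beyond pyruvate, at PCK2 or on the side branches. Of those 10 genes, 1 (ACSS2, lower) had an unadjusted p under 0.05 and 1 was called by DESeq2, and limma-voom called 0.

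**Figure D1:**
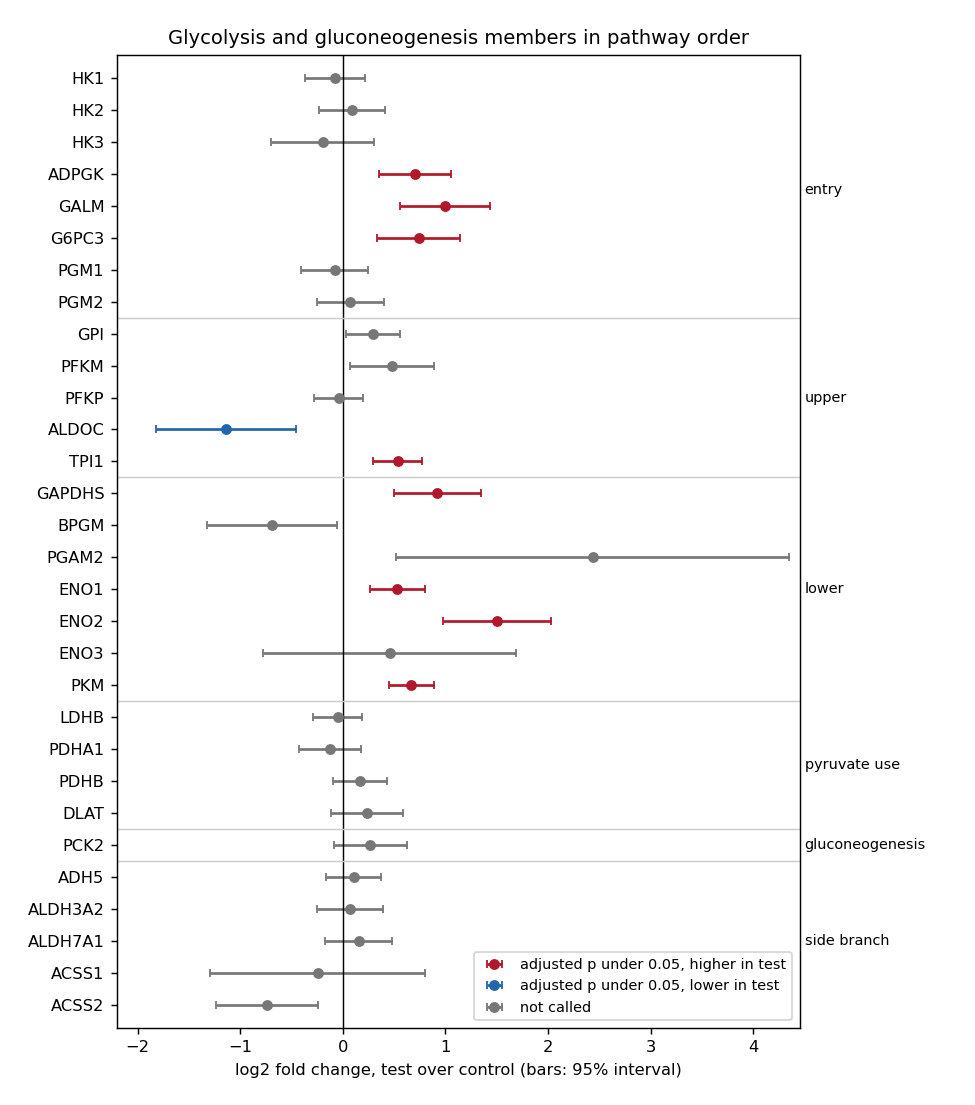
Log2 fold change, test over control, of 30 tested pathway genes in pathway order from the entry of glucose at the top, with 95% intervals from the edgeR fit; red marks genes called higher in test, blue the gene called lower and grey genes not called. The called rises are at the entry (ADPGK, GALM, G6PC3) and from TPI1 down to PKM, while the genes beyond pyruvate lie near 0.

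At the entry of the pathway the classical hexokinases did not differ detectably. HK1, the ubiquitous hexokinase (ENSOCUG00000006697), had 124.1, 98.4 and 112.1 CPM in test replicates 1 to 3 and 126.5, 103.8 and 122.0 CPM in control replicates 1 to 3. Its log2 fold change was -0.07, with a 95% interval from -0.36 to 0.22. HK2, the inducible form typical of muscle and fat (ENSOCUG00000000197), had a log2 fold change of 0.09 (95% interval -0.23 to 0.41), and HK3, a form of myeloid cells (ENSOCUG00000000401), one of -0.19 (-0.70 to 0.31). The ranges of the groups overlapped for each of these hexokinases. HKDC1, a further hexokinase, had 34 counts over the test libraries and 5 over the control libraries and was not tested.

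The other kinase acting on glucose, ADPGK (ENSOCUG00000011706), which uses ADP in place of ATP as its phosphate donor, rose 1.63-fold. It had 43.5, 42.0 and 48.2 CPM in test replicates 1 to 3 and 23.3, 31.3 and 27.6 CPM in control replicates 1 to 3, so every test library was above every control library (log2 fold change 0.70 ± 0.16 (SE), edgeR adjusted p = 0.0188). Its call was lost without test replicate 1, 2 or 3 or control replicate 3 (adjusted p = 0.0642, 0.0675, 0.0945 and 0.0633), with log2 fold changes from 0.64 to 0.74.

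GALM and G6PC3, which act on sugar anomers and on glucose release, both rose. GALM, the mutarotase that interconverts the anomers of galactose and glucose (ENSOCUG00000006325), had 39.7, 63.3 and 43.7 CPM in test replicates 1 to 3 and 24.6, 21.4 and 27.4 CPM in control replicates 1 to 3. Test replicate 2 was the highest, and the groups did not overlap (log2 fold change 1.0 ± 0.20, edgeR adjusted p = 0.0117). Without test replicate 2 the log2 fold change was 0.77 and the call was lost (adjusted p = 0.0581). G6PC3 (ENSOCUG00000008570), the widely expressed glucose-6-phosphatase of the endoplasmic reticulum, which neutrophils are known to need, had 25.3, 23.6 and 22.6 CPM in test replicates 1 to 3 and 14.1, 12.3 and 16.5 CPM in control replicates 1 to 3. Each test library held more G6PC3 than each control library (log2 fold change 0.74 ± 0.18, edgeR adjusted p = 0.0259), but the call was lost without test replicate 1, 2 or 3 (adjusted p = 0.102, 0.0869 and 0.0845).

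The phosphoglucomutases, which connect the pathway to glycogen (PGM1) and to pentose phosphates (PGM2), were not called. PGM1 averaged 54.1 ± 1.22 CPM in test tissue and 57.1 ± 9.96 CPM in control tissue, with a 95% interval of the log2 fold change from -0.41 to 0.25, and for PGM2 the interval ran from -0.25 to 0.40.

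In the upper part of the pathway GPI, PFKM and PFKP were not called, ALDOC fell and TPI1 rose. GPI, the isomerase that makes fructose-6-phosphate (ENSOCUG00000001455), had 338.6, 348.2 and 301.0 CPM in test replicates 1 to 3 and 290.0, 237.8 and 277.4 CPM in control replicates 1 to 3. The GPI groups did not overlap, yet the difference missed the threshold (log2 fold change 0.29 ± 0.12, edgeR adjusted p = 0.132). Phosphofructokinase catalyses the committed step. Its platelet-type subunit PFKP (ENSOCUG00000011039) had 96.8, 93.1 and 93.0 CPM in test replicates 1 to 3 and 97.4, 93.4 and 100.2 CPM in control replicates 1 to 3, a log2 fold change of -0.04 with a 95% interval from -0.28 to 0.20. Its muscle-type subunit PFKM (ENSOCUG00000017445) had 36.3, 51.7 and 42.2 CPM in test replicates 1 to 3 and 25.2, 32.4 and 35.7 CPM in control replicates 1 to 3. The lowest PFKM value of test tissue lay just above the highest of control tissue, and the gene was not called (log2 fold change 0.48 ± 0.18, edgeR adjusted p = 0.117).

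Aldolase cleaves fructose bisphosphate into triose phosphates. ALDOC, the aldolase best known from brain (ENSOCUG00000013802), had 61.1, 75.7 and 75.1 CPM in test replicates 1 to 3 and 74.2, 179.3 and 214.1 CPM in control replicates 1 to 3. Control replicates 2 and 3 were high, while control replicate 1 lay among the test libraries, so the groups overlapped. The fitted log2 fold change was -1.14 ± 0.31 (edgeR adjusted p = 0.0365), and ALDOC was the one called pathway gene whose groups overlapped. Its call was lost with limma-voom (adjusted p = 0.0841) and without test replicate 1, 2 or 3 or control replicate 2 or 3 (adjusted p = 0.136, 0.113, 0.115, 0.0637 and 0.134), and the log2 fold change without control replicate 3 was -0.84.

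TPI1 (ENSOCUG00000025649), which equilibrates the triose phosphates so that all of the sugar's carbon can go on, rose 1.45-fold. It had 589.9, 651.4 and 585.4 CPM in test replicates 1 to 3 and 417.0, 444.9 and 399.2 CPM in control replicates 1 to 3, with a clear gap between the groups (log2 fold change 0.53 ± 0.11, edgeR adjusted p = 0.0125). The call was lost without test replicate 2 or 3 or control replicate 3 (adjusted p = 0.0751, 0.0529 and 0.0593).

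**Figure D2:**
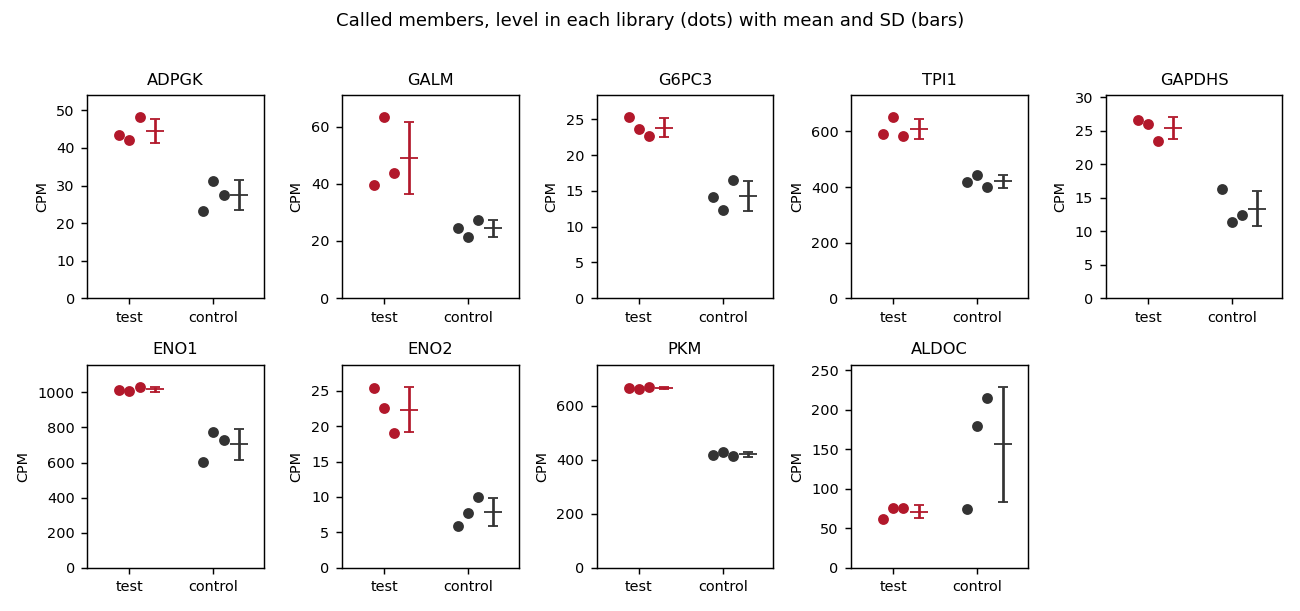
Level in CPM of the 9 called pathway genes in each library, with test (red) left of control (black); dots are single libraries, and the bars beside them are the mean and SD over 3 libraries. All test dots lie above all control dots for the 8 genes that rose, and for ALDOC control replicate 1, at 74.2 CPM, lies among the test libraries.

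In the lower part, from glyceraldehyde-3-phosphate to pyruvate, the steps with called genes were the dehydrogenase, enolase and pyruvate kinase. PKM (ENSOCUG00000006119), the pyruvate kinase of most tissues, which makes pyruvate and ATP in the last step, rose 1.59-fold. It had 665.0, 664.3 and 670.5 CPM in test replicates 1 to 3 and 416.5, 428.6 and 414.7 CPM in control replicates 1 to 3. Libraries of a group were nearly alike, and the gap between the groups was far wider than either spread (log2 fold change 0.67 ± 0.10, edgeR adjusted p = 0.0033). PKM ranked 172 of 12740 genes by p, the best rank in the pathway, and stayed called under all 12 alternatives run, with log2 fold changes from 0.66 to 0.68. Gene counts do not separate its M1 and M2 splice forms. The liver and red cell isozyme PKLR had 27 counts over the test libraries and 17 over the control libraries and was not tested.

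Enolase makes phosphoenolpyruvate, the substrate of pyruvate kinase. The ubiquitous ENO1 (ENSOCUG00000010086) had 1012.6, 1006.6 and 1031.1 CPM in test replicates 1 to 3 and 603.7, 776.5 and 728.1 CPM in control replicates 1 to 3. Test libraries were close together and all above the more variable control libraries (log2 fold change 0.53 ± 0.12, edgeR adjusted p = 0.0186), but the call was lost without test replicate 1, 2 or 3 or control replicate 3 (adjusted p = 0.0681, 0.0788, 0.082 and 0.0602). ENO2 (ENSOCUG00000003589), the isozyme typical of neurons, had 25.4, 22.6 and 19.0 CPM in test replicates 1 to 3 and 5.95, 7.75 and 9.99 CPM in control replicates 1 to 3. Every test library was far above the highest control library. ENO2 rose 2.83-fold, the largest called change in the pathway (log2 fold change 1.5 ± 0.24, edgeR adjusted p = 0.00418), and it stayed called under all 12 alternatives, between 1.34 and 1.71. ENO3, the muscle isozyme (ENSOCUG00000002108), had 8.20, 7.55 and 2.60 CPM in test replicates 1 to 3 and 7.52, 4.04 and 1.78 CPM in control replicates 1 to 3. The ENO3 groups overlapped and it was not called.

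The ratio of isozymes within a library needs no scaling between libraries, and 5 pairs were compared, 2 of them (HK3 over HK1 and PFKM over PFKP) chosen after the data were seen. For 3 libraries against 3, the smallest two-sided exact permutation p is 0.1, so no pair could pass a threshold of 0.05. ENO2 counts were 0.0250, 0.0225 and 0.0185 times ENO1 counts in test replicates 1 to 3 and 0.00985, 0.00998 and 0.0137 times in control replicates 1 to 3. All test ratios were above all control ratios, with a difference of 0.98 in mean log2 ratio (exact permutation p = 0.1, adjusted over the 5 pairs 0.25). PFKM counts were 0.375, 0.555 and 0.453 times PFKP counts in test replicates 1 to 3 and 0.259, 0.347 and 0.357 times in control replicates 1 to 3, again without overlap (difference 0.52 in mean log2 ratio, exact permutation p = 0.1, adjusted 0.25). The ratios of HK2 to HK1, HK3 to HK1 and ENO3 to ENO1 overlapped between the groups, with differences of 0.17, -0.09 and -0.02 in mean log2 ratio (exact permutation p = 0.5, 0.8 and 1).

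GAPDHS (ENSOCUG00000010922), known in mouse and human as the sperm form of glyceraldehyde-3-phosphate dehydrogenase, had 26.6, 26.0 and 23.5 CPM in test replicates 1 to 3 and 16.3, 11.4 and 12.4 CPM in control replicates 1 to 3. The groups did not overlap (log2 fold change 0.92 ± 0.19, edgeR adjusted p = 0.0139), and the call was lost without test replicate 1, 2 or 3 or control replicate 3 (adjusted p = 0.0641, 0.0655, 0.0529 and 0.058). Its value is uncertain, because reads can be shared with GAPDH and GAPDH-like sequences and the treatment of such reads is not stated.

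Neither phosphoglycerate mutase was called. PGAM2, the muscle form (ENSOCUG00000027853), had 8.54, 9.61 and 10.9 CPM in test replicates 1 to 3 and 0, 3.62 and 1.78 CPM in control replicates 1 to 3. Every test value was above every control value, but control libraries varied from no count to 79 counts, and the estimate was wide (log2 fold change 2.43, 95% interval 0.52 to 4.35, edgeR adjusted p = 0.0912). PGAM2 was called without control replicate 1 (log2 fold change 1.85, adjusted p = 0.00879), without control replicate 2 (3.46, adjusted p = 0.0299), with limma-voom (4.36, adjusted p = 0.044) and with the replicate number as a block (3.02, adjusted p = 0.038), though the numbers were not taken as pairs. BPGM (ENSOCUG00000003144), which makes the bisphosphoglycerate that regulates haemoglobin in red cells, averaged 8.21 ± 2.99 CPM in test tissue and 13.2 ± 2.13 CPM in control tissue (log2 fold change -0.69 ± 0.28, edgeR adjusted p = 0.138). The BPGM groups overlapped, since test replicate 1, at 11.7 CPM, was above control replicate 1.

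Markers of muscle fibres were higher in test tissue, where the muscle-type isozymes PGAM2 and PFKM, neither of them called, also had their higher values. The 13 muscle fibre markers in the table summed to 70.86 to 95.57 CPM in test libraries and 10.04 to 14.87 CPM in control libraries, and 7 of the 12 that were tested rose by edgeR, while 0 fell (10 and 0 at an unadjusted p under 0.05, 7 and 0 with DESeq2, 8 and 0 with limma-voom). The edgeR calls came to 58.3% of the 12, against 13.0% of all genes tested (6.84% higher), in a list chosen with earlier results of these data known. MYL1, ACTA1, NEB and CKM were among those that rose, and CASQ1 and RYR1 were not called. CKM had only 43 counts over the test libraries and 0 over the control libraries. For ENO3, also a muscle isozyme, the groups overlapped: control replicates 1 and 2 were above test replicate 3. The part of muscle fibre RNA in the values of PGAM2 and PFKM was not tested.

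**Figure D3:**
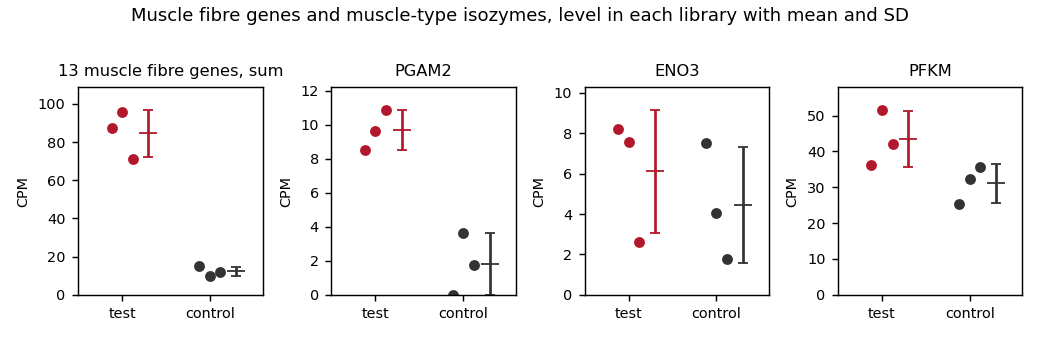
Summed level of 13 muscle fibre markers and the levels of PGAM2, ENO3 and PFKM, in CPM, with test (red) left of control (black); dots are libraries, bars the mean and SD over 3. The marker sum and PGAM2 separate the groups, PFKM separates them narrowly, and the ENO3 values overlap.

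Markers of other cell types differed as well, in both directions. These marker lists were chosen with earlier results of these data known, so their shares of calls are not independent evidence on cell types. Over all genes tested, 6.84% were called higher and 6.15% lower, together 13.0%. Of 5 tested markers of giant cells and lipid-laden macrophages, 5 rose (MMP9, ATP6V0D2, CHIT1, GPNMB and CTSK), and the 6 in the table summed to 6993 to 7327.7 CPM in test libraries and 3253.7 to 3754.4 CPM in control libraries. CTSK held most of that sum, at means of 6335.0 CPM in test tissue and 3318.0 CPM in control tissue. Of 5 tested neutrophil markers 3 rose (S100A8, S100A9 and S100A12), with sums over 6 genes of 403.3 to 458.7 CPM in test libraries and 71.0 to 134.5 CPM in control libraries. S100A8 and S100A9, at means of 233.8 and 164.0 CPM in test tissue and 52.9 and 37.5 CPM in control tissue, held most of that sum. CSF3R and CXCR2 were not called (log2 fold changes 0.82 and -0.47), and MPO had 10 counts, all in test replicate 1. Of 7 tested general macrophage markers 2 rose and 1 fell, with sums over 8 genes of 1994.5 to 2298.9 CPM in test libraries and 2581.8 to 2697.3 CPM in control libraries. Of 7 fibroblast markers 5 fell and 1 rose. Of 5 tested endothelium markers 1 fell, VWF, the von Willebrand factor of vessel walls (113.9 ± 7.68 CPM in test tissue and 236.2 ± 97.3 CPM in control tissue, edgeR adjusted p = 0.0237). All 5 endothelium markers had negative log2 fold changes, 3 at an unadjusted p under 0.05, and they summed to 641.0 to 722.5 CPM in test libraries and 727.7 to 1198.9 CPM in control libraries. Of 6 cartilage markers 1 rose by edgeR, the matrix protein gene MATN4 (16.2 ± 8.51 CPM in test tissue and 1.38 ± 1.40 CPM in control tissue, 11.8-fold, edgeR adjusted p = 0.00802). ACAN missed the threshold, with all test values above all control values (log2 fold change 0.99 ± 0.30, edgeR adjusted p = 0.0554). Of the 6 log2 fold changes 4 were positive and 2 negative, and limma-voom called 2 genes higher and 0 lower. The edgeR calls in the endothelium and cartilage lists came to 20.0% and 16.7%, 1 gene each, against 13.0% of all genes tested. Of 4 tested adipocyte markers 1 rose and 1 fell, as given above. The part of these cell types in the rises of PKM, ENO1, ENO2, TPI1, ADPGK, GALM, GAPDHS and G6PC3 was not tested.

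Beyond pyruvate, 0 of 4 tested genes were called by edgeR, DESeq2 or limma-voom, and 0 had an unadjusted p under 0.05. LDHB, the heart-type lactate dehydrogenase subunit (ENSOCUG00000022015), had 292.4, 286.5 and 267.0 CPM in test replicates 1 to 3 and 309.0, 269.4 and 295.8 CPM in control replicates 1 to 3. Its groups overlapped, and the 95% interval of its log2 fold change was -0.29 to 0.19. The pyruvate dehydrogenase genes PDHA1, PDHB and DLAT, which carry pyruvate into the citrate cycle, had log2 fold changes of -0.13, 0.17 and 0.24, each with an interval that includes 0. LDHAL6B, a testis form, had 0 counts in all 6 libraries, where the limit that a count of 0 allows is 3 counts in 59368400 over the test group and 3 in 67406804 over the control group. Counts are reads without molecular identifiers, so these limits cover counting error only.

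For the reactions proper to gluconeogenesis, the tested pathway genes include only G6PC3, counted above with the entry, and PCK2, and PCK2 was not called. Whether G6PC3 serves gluconeogenesis in this tissue was not tested. PCK2, the mitochondrial phosphoenolpyruvate carboxykinase (ENSOCUG00000002836), had 44.0, 47.4 and 33.9 CPM in test replicates 1 to 3 and 37.3, 32.8 and 34.1 CPM in control replicates 1 to 3, a log2 fold change of 0.27 with a 95% interval from -0.09 to 0.62. PCK1, the cytosolic form that is induced in fasting liver, had 1 count over the test libraries and 0 over the control libraries. On the side branches, the acetate-activating enzyme ACSS2 (ENSOCUG00000002260) had 7.75, 9.76 and 8.85 CPM in test replicates 1 to 3 and 12.3, 14.2 and 17.4 CPM in control replicates 1 to 3. All ACSS2 test values were below the control values, just short of the threshold (log2 fold change -0.74 ± 0.22, edgeR adjusted p = 0.0558), and it was called with DESeq2 (adjusted p = 0.0269) and without control replicate 1 (adjusted p = 0.0343). Its mitochondrial counterpart ACSS1 overlapped between the groups. The oxidising enzymes ADH5, ALDH3A2 and ALDH7A1, for formaldehyde, fatty aldehydes and lysine breakdown, had log2 fold changes of 0.10, 0.07 and 0.15 and were not called.

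The table places many of these genes in other pathways too. The counts in each are small, and 13.0% of all genes tested were called. Of the 8 tested pathway genes that the table also places in HIF-1 signalling, 2 were called, ENO1 and ENO2, both higher, while of the other 63 tested genes of that pathway 6 were higher and 6 lower. Of the 10 tested pathway genes that are also in pyruvate metabolism, 1 was called, PKM. Of the 11 also in biosynthesis of amino acids 4 were higher and 1 lower. Of the 6 also in amino sugar metabolism, edgeR, DESeq2 and limma-voom called 0, with 1 (GPI, higher) at an unadjusted p under 0.05. Of the 4 also in the citrate cycle, each of these tools called 0, and 0 had an unadjusted p under 0.05. None of these differences between annotations was tested.

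Among genes around the pathway, 10 of 64 tested were higher by edgeR and 0 lower, with a median log2 fold change of 0.20. That is 15.6% called, against 13.0% of all genes tested (6.84% higher). At an unadjusted p under 0.05, 21 were higher and 3 lower, and DESeq2 called 13 higher and 1 lower and limma-voom 11 higher and 0 lower. Of 9 listed genes of glucose entry, 6 were found by symbol and 4 had enough counts to be tested. The glucose transporter genes SLC2A3, SLC2A5 and SLC2A6 were not among those found. The 4 tested genes gave 0 calls with each of the 3 tools, and 0 at an unadjusted p under 0.05. SLC2A1, the main glucose transporter of most cells, had 64.1, 65.4 and 63.7 CPM in test replicates 1 to 3 and 37.3, 67.0 and 53.9 CPM in control replicates 1 to 3. Control replicate 2 was above every test library (log2 fold change 0.29 ± 0.19, edgeR adjusted p = 0.344). Of 4 tested genes that set the level of fructose bisphosphates, edgeR called 0, and 1 (PFKFB3, higher) had an unadjusted p under 0.05. PFKFB3, whose product stimulates phosphofructokinase, averaged 221.8 ± 16.7 CPM in test tissue and 173.4 ± 1.88 CPM in control tissue, with no overlap and an edgeR adjusted p of 0.0553. It was called with limma-voom (0.0398), with DESeq2 (0.0353) and without control replicate 2 (0.0471).

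At the exit, the lactate exporter SLC16A3 (ENSOCUG00000027310) rose and was the 1 call among 5 tested transporter genes (20.0%, against 13.0% of all genes tested). It had 24.1, 18.2 and 16.4 CPM in test replicates 1 to 3 and 7.77, 9.04 and 6.57 CPM in control replicates 1 to 3, without overlap (log2 fold change 1.33 ± 0.23, edgeR adjusted p = 0.00626), and stayed called under all 12 alternatives. SLC16A1, the other main lactate carrier here, overlapped through control replicate 2 (log2 fold change 0.55 ± 0.21, edgeR adjusted p = 0.114) and was called without that library (0.89, adjusted p = 0.00155). PDK4, a kinase that switches off pyruvate dehydrogenase, had 143.3, 162.1 and 236.1 CPM in test replicates 1 to 3 and 21.4, 72.0 and 54.7 CPM in control replicates 1 to 3. The lowest PDK4 value of test tissue was well above the highest of control tissue (log2 fold change 1.87 ± 0.36, edgeR adjusted p = 0.0108), and the call was lost without test replicate 3 (adjusted p = 0.0546). PDK2 and PDK3 were not called (log2 fold changes 0.57 and 0.47), nor was PDPR, with all test values below all control values (-0.37). PDK4 was the 1 call among 8 tested genes that control pyruvate dehydrogenase (12.5%, near the 13.0% of all genes tested). Of the 8 log2 fold changes 4 were positive and 4 negative, with a median of -0.04. In glycogen metabolism 1 of 8 tested genes was called (12.5%, near the 13.0% of all genes tested), the glycogen synthase GYS1 (53.4 ± 3.87 CPM in test tissue and 31.6 ± 2.22 CPM in control tissue, edgeR adjusted p = 0.00766, and 0.0519 without test replicate 2).

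The pentose phosphate branch gave 0 calls among 4 genes with each of the 3 tools, with 1 gene (PGD, higher) at an unadjusted p under 0.05, and the citrate cycle 2 among 14 (14.3%, again near the 13.0% of all genes tested). For SDHB, a succinate dehydrogenase subunit, the log2 fold change was 0.51 (edgeR adjusted p = 0.026). Its call was lost without test replicate 1, 2 or 3 or control replicate 3 (adjusted p = 0.112, 0.0725, 0.099 and 0.0944). CS, the citrate synthase, had lower values in all test libraries (log2 fold change -0.35 ± 0.11, edgeR adjusted p = 0.0655) and was called with DESeq2 (0.0455) and without control replicate 2 (0.0284).

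In the hypoxia response list, 5 of 17 tested genes rose by edgeR and 0 fell (6 and 0 at an unadjusted p under 0.05, 5 and 0 with DESeq2 and with limma-voom), with a median log2 fold change of 0.27. That is 29.4% called, against 13.0% of all genes tested (6.84% higher). The other 12 were not called, and over the 17 genes 14 log2 fold changes were positive and 3 negative. The 5 called genes were DDIT4, an inhibitor of mTOR signalling, CA9, a carbonic anhydrase, BNIP3, a mitophagy receptor, VEGFA, the vascular growth factor, and ANKRD37 (log2 fold changes 1.30, 1.58, 0.77, 1.31 and 0.94). DDIT4, CA9, BNIP3 and VEGFA stayed called under all 12 alternatives, while ANKRD37 was not called without test replicate 1 or 3 (adjusted p = 0.0569 and 0.0721). The whole list was chosen with earlier results of these data known, so its share of calls is not independent evidence. In addition, ANKRD37, and HIF1A, which encodes the hypoxia-regulated transcription factor itself, are named after their values were seen. HIF1A was not called (log2 fold change 0.35 ± 0.21, edgeR adjusted p = 0.316).

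**Figure D4:**
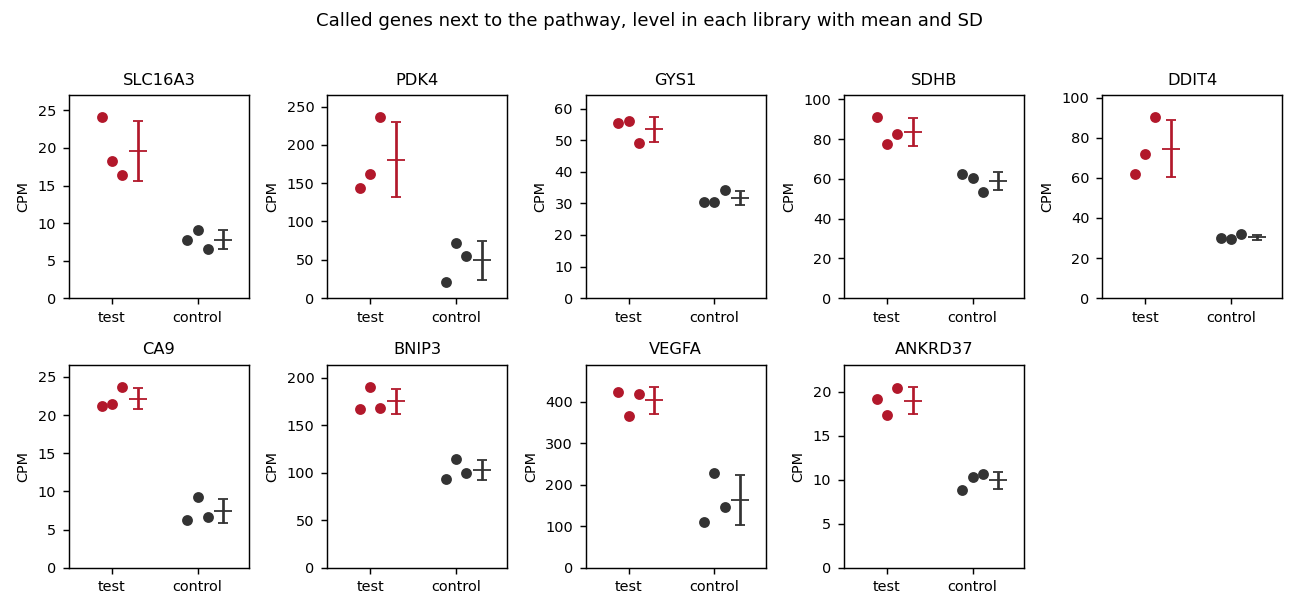
Level in CPM of 9 of the called genes around the pathway in each library, with test (red) left of control (black); dots are libraries, bars the mean and SD over 3. For all 9 genes, among them SLC16A3 with a log2 fold change of 1.33 and PDK4 with 1.87, the test dots lie above the control dots.

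Leaving out single libraries moved the number of calls strongly, here as in the whole table. Of the 9 called pathway genes, 4, 2 and 3 were called without test replicate 1, 2 or 3 and 4 without control replicate 3, while all genes called numbered 595, 471, 446 and 710. Without control replicate 1 or 2, 11 and 9 pathway genes were called. PKM and ENO2 were the pathway genes called in every case. Libraries of the pathway genes varied less than those of genes at large, with a median coefficient of variation of 8.71% in test tissue and 14.6% in control tissue, against 13.8% in test tissue and 20.7% in control tissue over all genes tested. The pathway genes were not matched to the others by level, so the smaller spread is not read as a trait of the pathway.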

How the data were processed

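Whole-number raw counts were deposited for each gene, per the file headers, and they alone were used. Left aside were 6 further columns that the header describes as normalized by edgeR. The tools in the submitters' processing notes are HISAT2, Cuffdiff and cutadapt 1.9.3, with no role stated, and the build listed there is that of rat (rn6). The counting tool, its strand setting and its treatment of reads shared between similar genes are not given in the sources used here, so isozymes with similar sequences can share reads. Per the labels' protocols, ribosomal RNA was depleted and the libraries were stranded. The table gives no positions, so none are printed.

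From the counts, edgeR 4.0.16 in R 4.3.3 was run on all 6 libraries with no covariate (TMM, filterByExpr with a minimum count of 10 and a minimum total of 15, quasi-likelihood test, two-sided, Benjamini-Hochberg adjustment over the 12740 genes tested, called at an adjusted p under 0.05). Standard errors were derived from the F statistic (the size of the log2 fold change over the root of F), and 95% intervals use the test's degrees of freedom. Isozyme ratios were compared with two-sided exact permutation tests. Of 7 planned pairs, the 4 that need LDHA, PFKL or ALDOA were not computed. Plots used Python 3.11.15 with matplotlib 3.10.9.

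Alternatives were DESeq2 size factors, no filter, the DESeq2 (1.42.0) Wald test, limma-voom (limma 3.58.1), the replicate number as a block, removal of the mitochondrially encoded genes and leaving out each library. The genes, gene lists and tests were chosen with earlier results of these data known. The rule names all pathway genes, in full the called ones, and up to 4 genes of each surrounding list with the smallest unadjusted p. Of these, 3 are counted but not reported here by name.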

Additional observations from a re-analysis of the deposited data

How the results depend on the processing

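With DESeq2 size factors, no filter or no mitochondrially encoded genes, the same 9 pathway genes were called. DESeq2's Wald test called 10 and limma-voom 9. Without single libraries the count of pathway genes called ran from 2 (without test replicate 2) to 11 (without control replicate 1), that of all genes from 446 (without test replicate 3) to 2163 (without control replicate 1) and that of surrounding genes from 6 (without test replicate 3) to 14. These fits hold fewer samples than the main one. The replicate numbers are shared between the groups, but deviations of same-numbered libraries correlated at 0.116, -0.0186 and 0.0246 across genes, so they were not taken as pairs. In the fit with the replicate block, 1681 genes were called, among them 11 surrounding genes and 10 pathway genes, which were the same 9 and PGAM2 (log2 fold change 3.02, adjusted p = 0.038). Among the genes reported by name, the sign of 10 log2 fold changes that were never called turned without single libraries. Their ranges were -0.15 to 0.0097 for HK1, -0.0018 to 0.23 for HK2, -0.20 to 0.035 for PGM1, -0.029 to 0.15 for PGM2, -0.098 to 0.0053 for LDHB, -0.0033 to 0.13 for ALDH3A2, -0.53 to 0.031 for ACSS1, -0.29 to 0.059 for TIGAR, -0.10 to 0.11 for TKT and -0.094 to 0.32 for H6PD. IDH3B was called with DESeq2 (adjusted p = 0.0393) and without control replicate 1 (0.0188). Differences in mean log2 isozyme ratio without single libraries ran from 0.88 to 1.14 for ENO2 over ENO1, from 0.37 to 0.66 for PFKM over PFKP, from 0.01 to 0.38 for HK2 over HK1, from -0.27 to 0.08 for HK3 over HK1 and from -0.59 to 0.59 for ENO3 over ENO1. Depth limits HKDC1, PKLR, PCK1 and LDHAL6B, which were not tested.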
